A study of Mus musculus with 24 samples.

Results

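The 10 genes described here encode the guidance cues Sema3a, Sema3c, Sema3e, Ntn1, Ntn4 and Slit2 and the receptors Plxnd1, Unc5b, Robo1 and Robo4, which blood vessels and growing axons share. They were chosen by symbol, and each matched 1 of 36109 genes listed for the lung and 1 of 36595 listed for the retina. All 10 also passed the filter on low counts, which kept 16819 lung genes and 19173 retina genes. RNA was sequenced from whole lungs and whole retinas of newborn mice, 3 mice in each of 4 groups per tissue. The groups were wild-type (WT) mice in room air (WT-RA), WT mice exposed to hyperoxia (WT-O2), and GSDMD-KO mice in room air (KO-RA) or hyperoxia (KO-O2). The study compared KO mice with WT littermates on a C57/B6 background, bred from heterozygous parents. The labels do not give the litter of any mouse, so litter could not be compared between the groups. The KO mice were homozygous for a small CRISPR/Cas9 deletion within an exon of Gsdmd, the gene of the pore-forming protein gasdermin D. The deletion is present in every cell, so the groups do not separate its effect in vessels from that in other cells. Lungs came from mice kept in 85% oxygen or in 21% oxygen (RA) from postnatal day 1 to 14 and were collected on day 15. Retinas came from mice kept in 75% oxygen from day 7 to 12 and returned to RA, or from mice kept in RA throughout, and were collected on day 18. The O2 group therefore means lungs just after hyperoxia but retinas collected after a return to RA. In WT retinas of this exposure the paper reported enlarged avascular areas and neovascularization, and in KO-O2 retinas less of both than in WT-O2. It also reported a lower vessel density in WT-O2 than in WT-RA lungs and a higher density in KO-O2 than in WT-O2 lungs. These results came from stained tissue and not from RNA.

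Class 3 semaphorins are secreted proteins that repel growth cones and sprouting vessels through plexins, in most cases with a neuropilin as co-receptor. Sema3e is the exception that binds Plxnd1 on endothelial cells without a neuropilin. Netrins are laminin-like proteins that attract through Dcc and Neo1 and repel through Unc5 receptors, of which Unc5b is the one found on arterial, capillary and tip cells of the endothelium. Slit proteins bind Robo1 and Robo2 on neurons and vessels, whereas Robo4 is nearly restricted to endothelium and holds vessels stable. In the retina these pathways steer both ganglion cell axons and the vessels that grow across the inner surface.

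Levels are given in CPM, which are counts relative to the library total of each mouse after that total was multiplied by a normalisation factor (TMM). In the lung the factors ran from 0.9545 to 1.025. In the retina they were lower in WT-RA (0.8632 to 0.9363) than in WT-O2 (1.027 to 1.103). They overlapped between KO-RA (0.9158 to 1.076) and KO-O2 retinas (1.04 to 1.052). Differences are log2 fold changes with their standard errors (SE). A gene "passed the test" when its adjusted p was under 0.1 over all genes of the tissue (quasi-likelihood F-test of edgeR, Benjamini-Hochberg). The rule of the study asked in addition for a change of 2-fold or more and for an unadjusted p below 0.05. Libraries held 28763661 to 29604254 counts in the lung and 24863257 to 29093035 in the retina. Gsdmd itself was lower in KO lungs, by a log2 fold change of -1.33 ± 0.11 in KO-O2 against WT-O2 (adjusted p = 8.3e-05) and -0.79 ± 0.11 in KO-RA against WT-RA (adjusted p = 0.014). In the retina it was at 0.419 to 5.70 CPM in WT and 0.636 to 2.95 CPM in KO, and neither difference passed (-1.17 ± 0.63, adjusted p = 0.48, and -1.58 ± 0.65, adjusted p = 0.35). Markers fitted the labelled tissues, with 8 lung epithelium genes summing to 20430 to 35420 CPM in lungs and 8 neuron and photoreceptor genes summing to 36590 to 55980 CPM in retinas. The lung KO-O2 replicate 1 held liver transcripts (Alb at 78.1 CPM against 0.976 to 2.20 CPM in the other lungs). Lens crystallin Cryaa stood at 6242 and 21290 CPM in the retinas WT-RA replicates 2 and 3 and at 8315 CPM in KO-RA replicate 3, against 0.451 to 117 CPM in the other retinas. KO-RA replicate 3 also held the pigment epithelium genes Rpe65 at 249 CPM and Ttr at 1588 CPM. The sum of 4 Y-linked genes exceeded 20 CPM in 1 of the 6 WT lungs (a WT-O2 mouse) and 5 of the 6 KO lungs (all but 1 KO-RA mouse). In retinas it did so in all 6 RA mice and in 2 of the 6 O2 mice, 1 of each genotype. Sex thus followed genotype in part in the lung and exposure in part in the retina.

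In hyperoxic lungs the cues and receptors moved in both directions. In WT, 8 of the 10 genes passed the test, with Sema3a, Sema3e, Unc5b, Robo1 and Robo4 higher and Sema3c, Ntn1 and Ntn4 lower, where 49.2% of all tested genes passed (24.5% higher and 24.7% lower). In GSDMD-KO, 7 of the 10 passed, the same genes apart from Robo4, where 46.7% of all genes passed (23.3% higher and 23.4% lower). RA and O2 lungs did not overlap for 7 of the 10 in WT (49.8% of all genes) and 7 in GSDMD-KO (52.4%). None of the 10 met the study's 2-fold rule, which 11.6% of all genes met in WT and 10.6% in GSDMD-KO. The median log2 fold change of the 10 genes was 0.30 in WT and 0.24 in GSDMD-KO, against -0.007 and -0.013 over all tested genes. With so many lung genes past the threshold, the number of guidance genes that passed is no more than a count. In whole tissue, fewer cells of a type and less RNA per cell cannot be told apart.

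**Figure D1:**
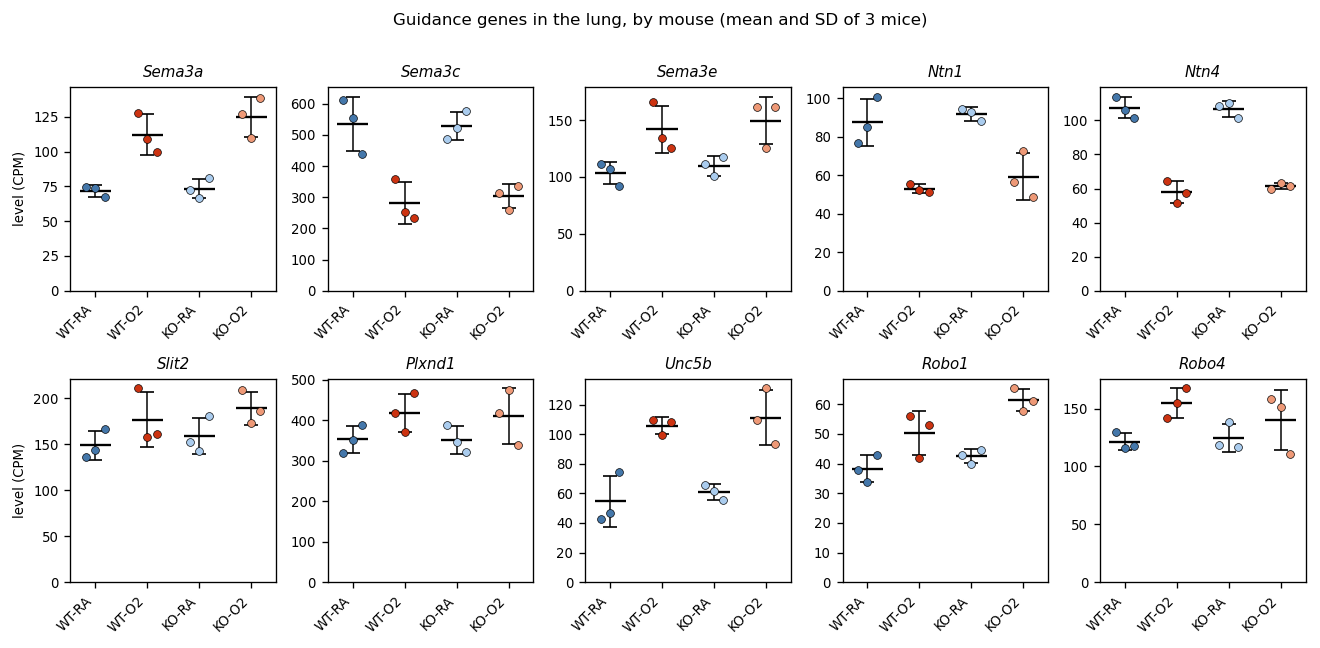
Level of each guidance gene in the lung in CPM (vertical axes, from 0) for each of the 3 mice of the groups WT-RA, WT-O2, KO-RA and KO-O2, with the mean (line) and SD (bar). Sema3c, Ntn1 and Ntn4 were lower in every O2 lung than in every RA lung of the same genotype, and Sema3a, Sema3e and Unc5b were higher in every one.

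Among the semaphorins, Sema3a (GRCm38 chr5:13125414-13602565, plus strand), which collapses growth cones and limits sprouting, rose. It stood at 74.9, 73.5 and 67.0 CPM in WT-RA and at 128, 109 and 99.5 CPM in WT-O2, and at 72.5, 66.8 and 80.8 CPM in KO-RA and 127, 109.7 and 138 CPM in KO-O2. The RA and O2 lungs did not overlap in either genotype, and the rise was 1.56-fold in WT (log2 fold change 0.64 ± 0.11, adjusted p = 0.00029) and 1.70-fold in GSDMD-KO (0.77 ± 0.11, adjusted p = 7e-05). Sema3e (chr5:14025276-14256689, plus strand), the Plxnd1 ligand, stood at 111, 107 and 92.2 CPM in WT-RA and 165, 134 and 126 CPM in WT-O2. Its levels were 112, 101 and 118 CPM in KO-RA and 162, 126 and 162 CPM in KO-O2. Every O2 lung was again above every RA lung of its genotype, by 0.45 ± 0.12 (adjusted p = 0.0083) and 0.44 ± 0.12 (adjusted p = 0.0099) on the log2 scale.

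Sema3c (chr5:17574281-17730268, plus strand), a cue for the cardiac outflow tract and for epithelial branching, was the most abundant of the 10 genes in RA lungs, and it fell. WT-RA lungs held 611, 555 and 439 CPM and WT-O2 lungs 360.1, 251 and 234 CPM. KO-RA lungs held 488, 522 and 575 CPM and KO-O2 lungs 314, 259.9 and 337 CPM. The groups did not overlap, and the fall was 1.90-fold in WT (-0.92 ± 0.16, adjusted p = 0.00059) and 1.74-fold in GSDMD-KO (-0.80 ± 0.16, adjusted p = 0.0017). The 3 semaphorins, which all lie on chromosome 5, thus did not share a direction.

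Both netrins fell. Ntn4 (chr10:93640681-93747207, plus strand), a laminin-binding basement membrane protein, stood at 114, 106 and 102 CPM in WT-RA and 64.5, 51.6 and 57.5 CPM in WT-O2. In GSDMD-KO it stood at 108, 110.3 and 101 CPM in RA and 59.5, 63.0 and 61.6 CPM in O2. RA and O2 lungs were far apart, and the fall of -0.89 ± 0.085 in WT (adjusted p = 1.6e-06) and -0.80 ± 0.085 in GSDMD-KO (adjusted p = 5e-06) had the smallest p of the 10 in both genotypes. Ntn1 (chr11:68209364-68400823, minus strand), the founding netrin and a ligand of Unc5b, stood at 76.7, 84.9 and 101 CPM in WT-RA and 55.6, 52.3 and 51.2 CPM in WT-O2. It stood at 94.8, 93.1 and 88.02 CPM in KO-RA and at 56.5, 72.9 and 48.6 CPM in KO-O2. No O2 lung reached an RA lung of its genotype, and the log2 fold change was -0.72 ± 0.13 in WT (adjusted p = 0.00047) and -0.63 ± 0.13 in GSDMD-KO (adjusted p = 0.0014).

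The netrin receptor Unc5b (chr10:60762593-60831581, minus strand) went the other way from its ligands. WT-RA lungs held 42.8, 46.8 and 74.4 CPM and WT-O2 lungs 109, 99.3 and 108 CPM. KO-RA lungs held 65.7, 61.9 and 55.2 CPM and KO-O2 lungs 109, 131 and 93.4 CPM. The groups did not overlap, although WT-RA replicate 3 stood apart from the other WT-RA lungs, and the rise was 1.94-fold in WT (0.95 ± 0.18, adjusted p = 0.0014) and 1.83-fold in GSDMD-KO (0.87 ± 0.18, adjusted p = 0.0027). The semaphorin receptor Plxnd1 (chr6:115954811-115995005, minus strand) stood at 320, 351 and 388 CPM in WT-RA and 417, 371 and 466 CPM in WT-O2, and the groups overlapped. In GSDMD-KO it stood at 388, 346 and 321 CPM in RA and 417, 476 and 339 CPM in O2, and neither difference passed the test (0.25 ± 0.13, adjusted p = 0.13, and 0.22 ± 0.13, adjusted p = 0.17). Without KO-O2 replicate 3, the lung with the lowest Plxnd1 and Robo4 of its group, Plxnd1 passed in both genotypes (adjusted p = 0.087 and 0.043). It also passed in WT without WT-RA replicate 3 (adjusted p = 0.066) or without WT-O2 replicate 2 (adjusted p = 0.078).

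Slit2 (chr5:47983138-48307733, plus strand), the secreted Robo ligand, stood at 137, 143 and 167 CPM in WT-RA, 211, 158 and 161 CPM in WT-O2, 152, 143 and 181 CPM in KO-RA and 209, 173 and 187 CPM in KO-O2. RA and O2 lungs overlapped in both genotypes, and neither difference passed (0.25 ± 0.13 in each, adjusted p = 0.13 and 0.12). This call depended on single lungs, since Slit2 passed in WT without WT-RA replicate 3, WT-O2 replicate 2 or WT-O2 replicate 3 (adjusted p = 0.052, 0.082 and 0.099). In GSDMD-KO it passed without KO-O2 replicate 2, WT-RA replicate 3, WT-O2 replicate 1 or KO-RA replicate 3 (adjusted p = 0.091, 0.096, 0.072 and 0.057). Its receptor Robo1 (chr16:72308306-73046095, plus strand) stood at 37.7, 33.9 and 43.0 CPM in WT-RA and 56.1, 41.8 and 52.9 CPM in WT-O2, with a narrow overlap. KO-RA lungs held 43.0, 40.0 and 44.5 CPM and KO-O2 lungs 65.4, 57.9 and 61.2 CPM, without overlap. Robo1 rose by 0.40 ± 0.11 in WT (adjusted p = 0.011) and by 0.53 ± 0.11 in GSDMD-KO (adjusted p = 0.0016) on the log2 scale.

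Robo4 (chr9:37401897-37415115, plus strand), the endothelial Robo, stood at 129.9, 116 and 118 CPM in WT-RA and 142, 155 and 167 CPM in WT-O2, without overlap, and rose by 0.35 ± 0.12 (adjusted p = 0.030). In GSDMD-KO it stood at 118, 138 and 117 CPM in RA and 159, 152 and 111 CPM in O2, where KO-O2 replicate 3 was the lowest lung of both groups, and did not pass (0.17 ± 0.12, adjusted p = 0.28). Without that lung the GSDMD-KO value was 0.31 (adjusted p = 0.027), and without WT-O2 replicate 3 the WT value was 0.30 (adjusted p = 0.11). The passed test in WT alone does not show a difference between genotypes, as the interaction for Robo4 was -0.18 ± 0.17 (adjusted p = 0.92).

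**Figure D2:**
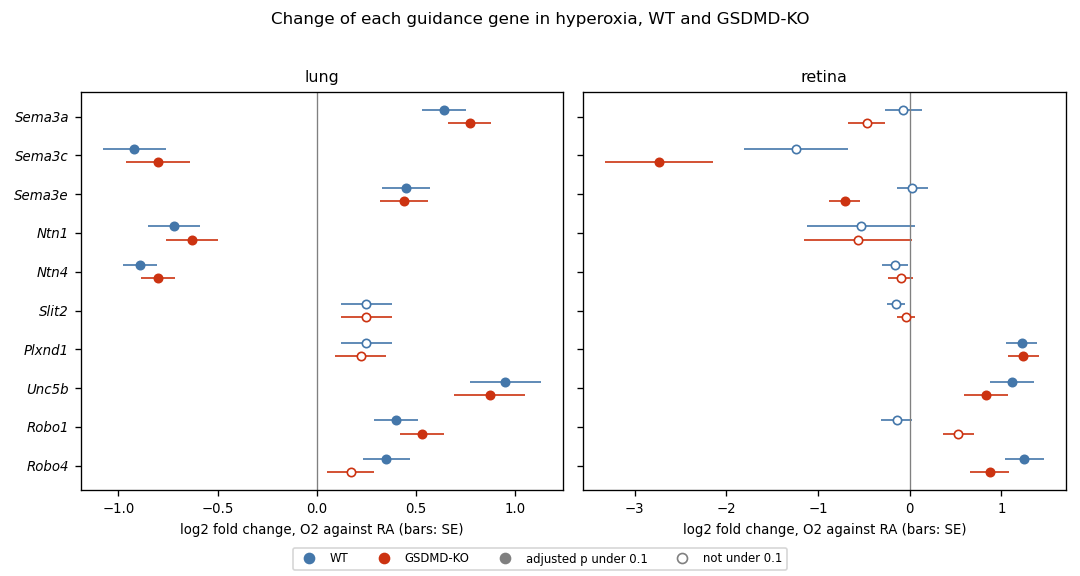
Log2 fold change of O2 against RA (horizontal axes, bars are SE) for each guidance gene in WT (blue) and GSDMD-KO (red), in the lung on the left and the retina on the right, with filled points where the adjusted p was under 0.1. In the lung the 2 genotypes lie side by side at each gene, and in the retina Plxnd1, Unc5b and Robo4 stand to the right of 0 and Sema3c to the left.

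Endothelial markers were measured beside the receptors. Of 10 endothelial genes (Pecam1, Cdh5, Tie1, Cldn5, Erg, Emcn, Esam, Egfl7, Ecscr and Eng), 6 fell and 2 rose in WT (24.7% and 24.5% of all genes) and 5 fell and 0 rose in GSDMD-KO (23.4% and 23.3%). Their summed level was 4840 to 5121 CPM in WT-RA, 4006 to 4456 CPM in WT-O2, 4564 to 4934 CPM in KO-RA and 3655 to 4599 CPM in KO-O2, and the KO sums overlapped. Averaged over the list, log2 CPM differed between O2 and RA by -0.34 in WT and -0.28 in GSDMD-KO, and these averages did not overlap. Measured against this average in each lung, Unc5b was 1.34 higher on the log2 scale in WT-O2 and 1.14 higher in KO-O2 than in RA, Robo4 0.69 and 0.44 higher, and Plxnd1 0.58 and 0.50 higher. None of these ratios overlapped between RA and O2 lungs in either genotype. Because the list itself was lower in O2, a gene at an unchanged level would also be higher relative to it. Plxnd1 by itself did not pass the test in either genotype. The share of all genes whose ratios did not overlap was not computed. With Pecam1 and Cdh5 alone as the reference, the ratios were 1.29 and 1.08 for Unc5b, 0.64 and 0.38 for Robo4 and 0.53 and 0.44 for Plxnd1. The sum of 7 fibroblast markers was also lower, at 12750 to 15150 CPM in WT-RA, 6724 to 8402 CPM in WT-O2, 11080 to 12840 CPM in KO-RA and 6855 to 8046 CPM in KO-O2, and 4 of the 7 fell and 2 rose in each genotype, beside the same shares of all genes. The sum of the 8 epithelial markers was lower as well, at 30970 to 35310 CPM in WT-RA, 22950 to 26380 CPM in WT-O2, 30130 to 35420 CPM in KO-RA and 20430 to 24080 CPM in KO-O2. The sum of the erythroid markers was 10080 to 11490 CPM in WT-RA and 1807 to 2583 CPM in WT-O2, and 8374 to 17200 CPM in KO-RA and 3724 to 18780 CPM in KO-O2, where the KO lungs overlapped. The part of these cell markers in the changes of the 10 genes was not tested.

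Between genotypes, no difference of the 10 genes passed the test in the lung. In KO-O2 against WT-O2, 0 of 10 passed, where 0.0416% of all genes passed, and the log2 differences ran from -0.14 ± 0.12 for Robo4 to 0.29 ± 0.11 for Robo1. Robo1 was the only gene of the 10 at an unadjusted p under 0.05 (6.21% of all genes) and the only one without overlap (12.2% of all genes), at 57.9 to 65.4 CPM in KO-O2 against 41.8 to 56.1 CPM in WT-O2 (adjusted p = 0.74 by edgeR's quasi-likelihood test). In KO-RA against WT-RA, 0 of 10 passed (0.488% of all genes) and 0 were at an unadjusted p under 0.05 (10.5%), with differences from -0.02 ± 0.16 for Sema3c to 0.16 ± 0.18 for Unc5b. Without WT-RA replicate 3, the high WT-RA lung, Unc5b passed in that comparison (0.44, adjusted p = 0.082). The interaction of genotype and hyperoxia ran from -0.18 ± 0.17 for Robo4 to 0.14 ± 0.16 for Robo1, 0 of 10 passed (0.00595% of all genes), and 0 were at an unadjusted p under 0.05 (6.72%). DESeq2 also called 0 of the 10 in each of these lung comparisons.

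Several other genes of these pathways moved further in the lung than the 10. Of 47 tested genes from a list of 49 further semaphorins, plexins, neuropilins, netrins, netrin receptors, FLRT and RGM ligands, Slits, Robos and Slit-Robo GTPase-activating proteins, 19 rose and 10 fell in WT (24.5% and 24.7% of all genes) and 17 rose and 10 fell in GSDMD-KO (23.3% and 23.4%). Their median log2 fold change was 0.15 and 0.13. The neuropilin Nrp2, a co-receptor of class 3 semaphorins and of VEGF-C, stood at 69.2 to 78.3 CPM in WT-RA and 130.1 to 143 CPM in WT-O2, and at 65.5 to 69.0 CPM in KO-RA and 145 to 148 CPM in KO-O2. It rose by 0.88 ± 0.070 (adjusted p = 2.8e-07) and 1.12 ± 0.071 (adjusted p = 4e-08). Its paralogue Nrp1, the Sema3a co-receptor, stood at 177 to 277 CPM in WT-RA and 159 to 231 CPM in WT-O2 and did not pass in WT (-0.30 ± 0.16, adjusted p = 0.15) or in GSDMD-KO (0.11 ± 0.16, adjusted p = 0.64).

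Of the list, Sema3g fell furthest in both genotypes. This class 3 semaphorin of arterial endothelium fell from 228, 176 and 177 CPM in WT-RA to 44.0, 33.9 and 39.6 CPM in WT-O2 and from 182, 199 and 202 CPM in KO-RA to 37.0, 50.2 and 35.4 CPM in KO-O2. The groups were far from overlap, and the fall was 4.93-fold in WT (-2.30 ± 0.15, adjusted p = 5.8e-08) and 4.75-fold in GSDMD-KO (-2.25 ± 0.15, adjusted p = 9e-08). Sema6a, a transmembrane semaphorin, fell 3.79-fold in WT (-1.92 ± 0.10, adjusted p = 7.5e-09) and 2.52-fold in GSDMD-KO (-1.33 ± 0.10, adjusted p = 2.1e-07). Its interaction of genotype and hyperoxia was 0.59 ± 0.14 and did not pass by edgeR's test (adjusted p = 0.37), whereas DESeq2 called it. Sema4c fell by a log2 fold change of -0.94 ± 0.10 and -0.95 ± 0.10 (adjusted p = 6e-06 and 6.5e-06). In the other direction, Sema3b rose by 0.77 ± 0.071 and 0.58 ± 0.071, and the plexins Plxna4 and Plxnb2 by 0.94 ± 0.091 and 0.72 ± 0.084 in WT and by 0.80 ± 0.090 and 0.80 ± 0.084 in GSDMD-KO, each with an adjusted p of 2e-05 or less.

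On the netrin side, Dcc, the attractive netrin receptor, was barely detected in RA lungs at 0.105 to 0.172 CPM in WT and 0.0689 to 0.137 CPM in KO. It stood at 0.852, 0.516 and 0.169 CPM in WT-O2 and 0.840, 0.814 and 0.268 CPM in KO-O2 and passed in both (1.87 ± 0.63, adjusted p = 0.028, and 2.59 ± 0.65, adjusted p = 0.0056), on at most 25 counts in a library. Neo1 did not pass (-0.14 ± 0.086 in WT and -0.11 ± 0.086 in GSDMD-KO, adjusted p = 0.21 and 0.36), nor did Unc5c (0.21 ± 0.14 and 0.25 ± 0.14, adjusted p = 0.23 and 0.16). Of the 4 other Slit and Robo genes, Robo2 rose in both genotypes, from 51.4 to 77.1 CPM in WT-RA to 95.8 to 130.0 CPM in WT-O2 (0.77 ± 0.16, adjusted p = 0.0016) and from 67.4 to 89.7 CPM in KO-RA to 114 to 132 CPM in KO-O2 (0.68 ± 0.15, adjusted p = 0.0038). Slit3 passed in WT alone (0.35 ± 0.15, adjusted p = 0.070, against 0.09 ± 0.15, adjusted p = 0.65, in GSDMD-KO). That does not show a difference between genotypes, and DESeq2 did not call the interaction for Slit3. Robo3, which lies next to Robo4 on chromosome 9 and was picked after its values were seen, stood at 0.174 to 0.619 CPM in WT-RA and 2.59 to 4.93 CPM in WT-O2, and at 0.203 to 0.308 CPM in KO-RA and 2.14 to 3.67 CPM in KO-O2 (3.46 ± 0.41, adjusted p = 1.2e-05, and 3.58 ± 0.43, adjusted p = 1.6e-05). Between genotypes 0 of the 47 passed by edgeR's test in O2 or in RA lungs, with 4 and 12 at an unadjusted p under 0.05 (6.21% and 10.5% of all genes). DESeq2 called 1 (Sema6b) in O2 lungs and 3 (Plxna2, Plxnb1 and Sema4d) in RA lungs, named here after their values were seen. For the interaction DESeq2 called 2 of the list, Sema6a and Sema6b, and by edgeR's test Sema6b did not pass (-0.69 ± 0.17, adjusted p = 0.39).

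In the retina 3 of the 4 receptors rose in both genotypes, and none of the 6 cues rose. Plxnd1, Robo4 and Unc5b passed the test in WT, 3 of 10 and all higher, where 5.16% of all genes passed (3.11% higher and 2.05% lower), and all 3 met the study's 2-fold rule (2.04% of all genes). In GSDMD-KO, 5 of 10 passed, where 7.82% of all genes passed. The same 3 receptors were higher (4.38% of all genes) and the semaphorins Sema3c and Sema3e lower (3.44% of all genes), and Plxnd1 and Sema3c met the 2-fold rule (2.19% of all genes). RA and O2 retinas did not overlap for 4 of the 10 in WT (24.0% of all genes) and for 8 of the 10 in GSDMD-KO (26.2% of all genes). The median log2 fold change of the 10 was -0.11 in WT and -0.07 in GSDMD-KO, against 0.001 over all genes in both.

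**Figure D3:**
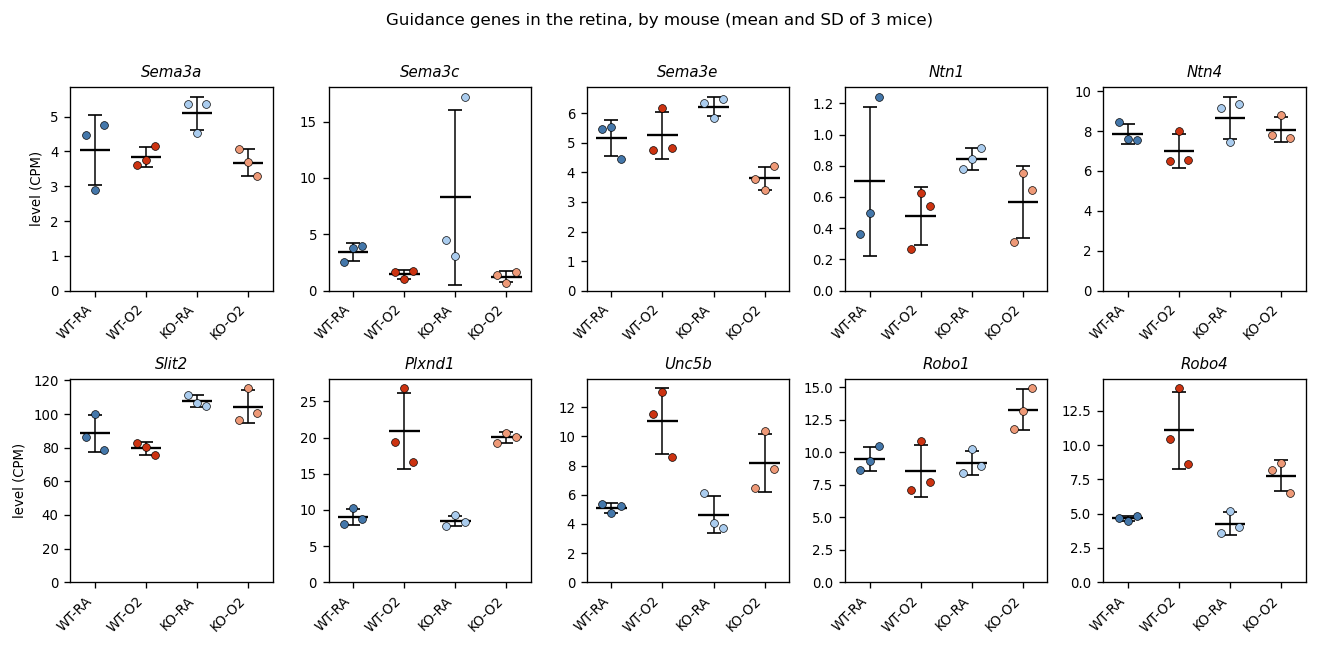
Level of each guidance gene in the retina in CPM (vertical axes, from 0) for each of the 3 mice of the groups WT-RA, WT-O2, KO-RA and KO-O2, with the mean (line) and SD (bar). Plxnd1, Unc5b and Robo4 were higher in every O2 retina than in every RA retina of the same genotype, and 1 KO-RA retina held 17.2 CPM of Sema3c, above the other 11 retinas.

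The promoters of these 3 receptors are shown because the genes moved together in the retina. Each line gives the 250 bases before the start of the gene in RefSeq (assembly GRCm38.p6), read on the strand of the gene. Capitals mark the core of hypoxia response elements, ACGTG or GCGTG, and the core of ETS factor sites, AGGAAG, an element common in endothelial genes, with either core read on both strands.
Plxnd1, chr6:115995006-115995255, minus strand: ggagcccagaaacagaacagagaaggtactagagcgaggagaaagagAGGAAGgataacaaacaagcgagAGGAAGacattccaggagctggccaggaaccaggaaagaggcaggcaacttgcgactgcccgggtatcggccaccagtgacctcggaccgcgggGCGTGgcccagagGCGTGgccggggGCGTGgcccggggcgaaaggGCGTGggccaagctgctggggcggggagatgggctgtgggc
Unc5b, chr10:60831582-60831831, minus strand: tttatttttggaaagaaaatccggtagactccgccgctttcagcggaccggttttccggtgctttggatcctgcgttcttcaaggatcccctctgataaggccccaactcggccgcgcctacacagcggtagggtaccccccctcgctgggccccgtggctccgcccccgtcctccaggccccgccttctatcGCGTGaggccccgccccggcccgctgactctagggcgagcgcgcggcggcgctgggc
Robo4, chr9:37401722-37401971, plus strand: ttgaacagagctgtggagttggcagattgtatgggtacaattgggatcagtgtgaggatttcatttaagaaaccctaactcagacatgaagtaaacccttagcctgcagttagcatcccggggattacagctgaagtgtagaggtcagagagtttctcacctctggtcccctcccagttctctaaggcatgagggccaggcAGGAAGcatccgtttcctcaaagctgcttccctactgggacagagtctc

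Plxnd1 held 4 hypoxia cores, 86, 73, 61 and 41 bases before the start, and 2 ETS cores at 203 and 180 bases. Unc5b held 1 hypoxia core at 57 bases and no ETS core, and Robo4 held 1 ETS core at 49 bases and no hypoxia core. Of 32851 promoters of the same length in the table, 38.6% held a hypoxia core and 29.5% an ETS core. Among the 9 of the 10 genes that the table holds, 4 held a hypoxia core (Sema3c, Plxnd1, Unc5b and Robo1) and 5 an ETS core (Sema3a, Sema3e, Plxnd1, Robo4 and Ntn4). The promoters of Plxnd1 and Unc5b were richer in G and C (64.8% and 66.8%) than the median promoter (52.4%), and that of Robo4 was not (49.6%). A match of so few letters is a description of the sequence and not a bound site.

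Plxnd1 gave the clearest change of the 10 in the retina. It stood at 8.04, 10.2 and 8.74 CPM in WT-RA and 19.4, 26.8 and 16.6 CPM in WT-O2, and at 7.81, 9.25 and 8.34 CPM in KO-RA and 19.3, 20.7 and 20.1 CPM in KO-O2. The lowest O2 retina was well above the highest RA retina in both genotypes, and the rise was 2.33-fold in WT (1.22 ± 0.17, adjusted p = 0.0040) and 2.36-fold in GSDMD-KO (1.24 ± 0.17, adjusted p = 0.0045). It was the only gene of the 10 that passed in both genotypes in each fit that left out a library, and also without the 3 lens-marked libraries (1.38, adjusted p = 0.058, in WT and 1.23, adjusted p = 0.040, in GSDMD-KO).

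Robo4 stood at 4.68, 4.46 and 4.84 CPM in WT-RA and 10.5, 14.2 and 8.64 CPM in WT-O2, and at 3.58, 5.21 and 4.01 CPM in KO-RA and 8.15, 8.72 and 6.48 CPM in KO-O2, without overlap. It rose 2.38-fold in WT (1.25 ± 0.21, adjusted p = 0.012) and 1.82-fold in GSDMD-KO (0.87 ± 0.21, adjusted p = 0.044). The GSDMD-KO call was lost without KO-RA replicate 1, KO-RA replicate 3 or KO-O2 replicate 2 (adjusted p = 0.15, 0.13 and 0.17). Unc5b stood at 5.36, 4.73 and 5.23 CPM in WT-RA and 11.5, 13.0 and 8.58 CPM in WT-O2, and at 6.08, 4.04 and 3.73 CPM in KO-RA and 6.45, 10.4 and 7.77 CPM in KO-O2. The groups did not overlap, by a narrow margin in GSDMD-KO, and the rise was 2.16-fold in WT (1.11 ± 0.24, adjusted p = 0.036) and 1.77-fold in GSDMD-KO (0.83 ± 0.24, adjusted p = 0.078). Its WT call was lost without WT-O2 replicate 1 or 2 or WT-RA replicate 1 or 2 (adjusted p = 0.10 to 0.13). Its GSDMD-KO call was lost without KO-RA replicate 2 or 3, KO-O2 replicate 2 or 3, or WT-O2 replicate 1 (adjusted p = 0.11 to 0.29). The GSDMD-KO call of Unc5b was also lost with only the groups compared (adjusted p = 0.15) and with no filter on low counts (adjusted p = 0.10).

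Endothelial markers rose with the 3 receptors. Of the same 10 endothelial genes, 9 rose in WT (3.11% of all genes) and 9 in GSDMD-KO (4.38%), and their sum was 121 to 156 CPM in WT-RA, 280 to 342 CPM in WT-O2, 125 to 154 CPM in KO-RA and 232 to 269 CPM in KO-O2. Averaged over the list, log2 CPM was 1.30 higher in WT-O2 than in WT-RA and 0.95 higher in KO-O2 than in KO-RA. Relative to this average, Robo4 differed between O2 and RA by -0.08 in WT and -0.08 in GSDMD-KO, Unc5b by -0.21 and -0.11, and Plxnd1 by -0.11 in WT, and all these ratios overlapped between RA and O2 retinas. Only the ratio of Plxnd1 in GSDMD-KO did not overlap (0.30). With Pecam1 and Cdh5 alone as the reference, the ratios were -0.18 and 0.00 for Robo4, -0.31 and -0.04 for Unc5b and -0.21 and 0.37 for Plxnd1. In the lung the 3 receptors were thus higher in O2 relative to endothelial genes, whose average was itself lower there. In the retina 5 of the 6 ratios did not separate O2 from RA. The 2 tissues came as separate tables and had different exposures, so this contrast was not tested. Mural cell markers moved with the vessel markers, as all 7 rose in WT and 5 of 7 in GSDMD-KO, beside the same shares of all genes. The part of either cell type in the rise of the receptors was not tested.

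**Figure D4:**
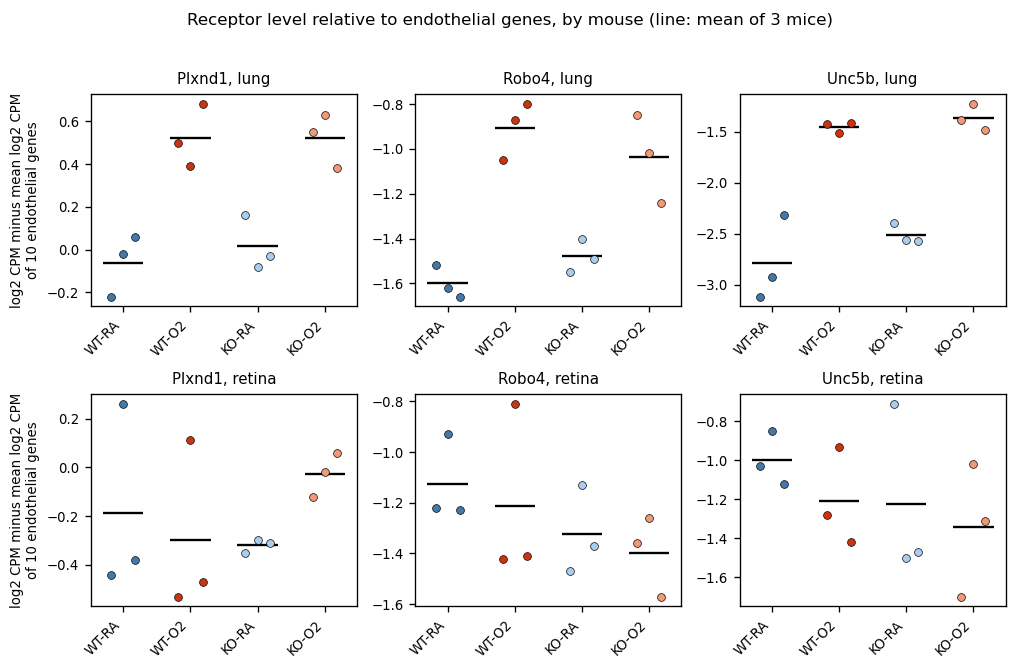
Level of Plxnd1, Robo4 and Unc5b relative to endothelial genes (vertical axes, log2 CPM of the gene minus the mean log2 CPM of 10 endothelial genes) for each mouse of the 4 groups, lung above and retina below, with the group mean as a line. The O2 lungs lie above the RA lungs in every panel of the upper row, and the retinas overlap in every comparison apart from Plxnd1 in GSDMD-KO.

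Sema3c fell in GSDMD-KO retinas, a value that rested in part on 1 mouse. KO-RA retinas held 4.53, 3.09 and 17.2 CPM and KO-O2 retinas 1.35, 0.718 and 1.66 CPM. The 17.2 CPM came from KO-RA replicate 3, the retina with lens and pigment epithelium transcripts. The fall was -2.73 ± 0.59 (adjusted p = 0.031) with that library and -1.61 (adjusted p = 0.080) without it. Without KO-O2 replicate 2 it was -2.45 (adjusted p = 0.14), and with only the groups compared it was -2.73 (adjusted p = 0.12). In WT, the retinas held 2.56, 3.77 and 3.98 CPM in RA and 1.65, 0.998 and 1.70 CPM in O2, also without overlap, but did not pass (-1.24 ± 0.57, adjusted p = 0.29). Counts of Sema3c were 20.8 to 48.8 per library in KO-O2, so counting error adds to the spread of these values.

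Sema3e stood at 5.48, 5.53 and 4.45 CPM in WT-RA and 4.77, 6.17 and 4.83 CPM in WT-O2, with no difference past the test (0.03 ± 0.17, adjusted p = 0.96). In GSDMD-KO it stood at 6.35, 5.85 and 6.48 CPM in RA and 3.78, 3.42 and 4.21 CPM in O2, and fell by 0.71 on the log2 scale (SE 0.17, adjusted p = 0.041). The call was lost without KO-RA replicate 1, KO-RA replicate 3 or KO-O2 replicate 2 (adjusted p = 0.11, 0.11 and 0.17). The interaction was -0.74 ± 0.23 (adjusted p = 0.29 by edgeR), so a difference between the genotypes in this response did not pass. Sema3a stood at 4.48, 2.90 and 4.75 CPM in WT-RA and 3.62, 3.74 and 4.15 CPM in WT-O2 (-0.07 ± 0.20, adjusted p = 0.90), and at 5.37, 4.54 and 5.36 CPM in KO-RA and 4.06, 3.69 and 3.29 CPM in KO-O2 (-0.47 ± 0.20, adjusted p = 0.22). The KO retinas did not overlap and the WT retinas did. Of 9 ganglion cell markers, 2 fell in WT (2.05% of all genes) and 3 in GSDMD-KO (3.44%), with sums of 1115 to 1547 CPM in WT-RA, 925 to 1034 CPM in WT-O2, 1098 to 1253 CPM in KO-RA and 879 to 1004 CPM in KO-O2, and their part in the fall of the semaphorins was not tested.

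The netrins and Slit2 did not pass in either genotype. Ntn4 ran from 6.50 to 9.38 CPM over all 12 retinas (-0.16 ± 0.14, adjusted p = 0.61, and -0.10 ± 0.14, adjusted p = 0.75). Ntn1 was near the limit of these libraries, at 0.360 to 1.24 CPM in WT-RA, 0.269 to 0.624 CPM in WT-O2, 0.777 to 0.914 CPM in KO-RA and 0.312 to 0.752 CPM in KO-O2. These levels are 7.2 to 29.2 counts a library, and a change of Ntn1 of the size seen in the lung was not detectable at this depth (-0.53 ± 0.59 and -0.56 ± 0.59). Without the lens-marked libraries the WT value had the other sign (0.41, adjusted p = 0.84). Slit2 was the most abundant of the 10 in the retina, at 86.6, 100.3 and 78.6 CPM in WT-RA and 82.8, 80.1 and 75.7 CPM in WT-O2 (-0.15 ± 0.10, adjusted p = 0.48). It stood at 111, 106 and 105 CPM in KO-RA and 96.6, 115 and 101 CPM in KO-O2 (-0.04 ± 0.10, adjusted p = 0.85). Robo1 stood at 8.64, 9.30 and 10.4 CPM in WT-RA and 7.12, 10.9 and 7.73 CPM in WT-O2 (-0.14 ± 0.17, adjusted p = 0.74), and at 8.42, 10.2 and 8.98 CPM in KO-RA and 11.8, 13.2 and 14.9 CPM in KO-O2. The KO groups did not overlap, and the difference missed the threshold (0.53 ± 0.17, adjusted p = 0.11). It passed without KO-O2 replicate 1 (adjusted p = 0.097) or WT-O2 replicate 2 (adjusted p = 0.068) and by DESeq2 (adjusted p = 0.066).

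All 3 lens-marked retinas were RA retinas. A list of 10 lens, pigment epithelium and ciliary genes summed to 590 to 45170 CPM in WT-RA, 509 to 598 CPM in WT-O2, 654 to 20340 CPM in KO-RA and 574 to 898 CPM in KO-O2. Without them, 1 of the 10 genes passed in WT and 1 in GSDMD-KO, in both Plxnd1, while Robo4 had a log2 fold change of 1.24 and 0.83 (adjusted p = 0.13 and 0.17) and Unc5b of 1.04 and 0.70 (adjusted p = 0.19 and 0.26). Sema3c was then at -0.82 in WT and -1.61 in GSDMD-KO (adjusted p = 0.44 and 0.11) and Sema3e at -0.68 in GSDMD-KO (adjusted p = 0.13). That fit has 1 WT-RA and 2 KO-RA retinas, and the lone WT-RA retina is assumed to vary like the other groups. With a term for Y-linked expression, 3 of the 10 passed in WT and 3 in GSDMD-KO, where Sema3c and Robo4 lost their calls (adjusted p = 0.10 and 0.11).

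Between genotypes in the retina, 0 of 10 passed in KO-O2 against WT-O2, where 1.27% of all genes passed. At an unadjusted p under 0.05 there were 4 (12.6% of all genes), of which Slit2 and Robo1 were higher and Sema3e and Robo4 lower in KO-O2. The log2 differences were 0.39 ± 0.10 for Slit2 (adjusted p = 0.13), 0.63 ± 0.17 for Robo1 (adjusted p = 0.14), -0.47 ± 0.17 for Sema3e (adjusted p = 0.26) and -0.51 ± 0.20 for Robo4 (adjusted p = 0.32). Slit2, Robo1 and Sema3e did not overlap between the genotypes (19.9% of all genes), and Robo4 did. DESeq2 called 2 of the 10 in this comparison, Slit2 (0.37, adjusted p = 0.016) and Robo1 (0.61, adjusted p = 0.050). The share of all genes that DESeq2 called is not given here, so this is no more than a count. In KO-RA against WT-RA, 0 of 10 passed (0.00522% of all genes), with 2 at an unadjusted p under 0.05 (12.7% of all genes), Slit2 at 0.28 ± 0.10 (adjusted p = 0.31) and Sema3c at 1.26 ± 0.56 (adjusted p = 0.38). The Sema3c value rested on KO-RA replicate 3, the retina with 17.2 CPM, and was 0.15 without it (adjusted p = 0.94). Slit2 was therefore higher in KO than in WT retinas at both exposures without overlap, at 105 to 111 against 78.6 to 100.3 CPM in RA and 96.6 to 115 against 75.7 to 82.8 CPM in O2. It did not pass the test in either. In RA, 17.7% of all genes did not overlap between genotypes, and of the 10 Sema3e did not either (0.27 ± 0.16, higher in KO). WT-RA replicates 2 and 3 are lens-marked, and without the lens-marked libraries the Slit2 difference in RA was 0.32. For the interaction 0 of 10 passed (0.00522% of all genes), and Robo1 (0.67 ± 0.24, adjusted p = 0.35) and Sema3e were at an unadjusted p under 0.05 (10.6% of all genes). DESeq2 called 0 of the 10 for the interaction and 0 in KO-RA against WT-RA.

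Few other genes of the pathways passed in the retina. Of 48 tested genes of the list, 2 rose and 0 fell in WT, and 2 rose and 2 fell in GSDMD-KO, shares of 4.17% and 8.33% near those of all genes. DESeq2 called 2 higher and 3 lower in WT (Flrt2, Plxna1 and Robo3, the last pair named after their values were seen) and 4 higher and 2 lower in GSDMD-KO. These DESeq2 counts stand without a share of all genes. Nrp1, the co-receptor of Sema3a and of VEGF-A, rose in WT from 5.04, 4.31 and 5.95 CPM in RA to 9.70, 10.4 and 9.496 CPM in O2 (0.95 ± 0.14, adjusted p = 0.0069). In GSDMD-KO it stood at 6.39, 6.12 and 6.16 CPM in RA and 7.91, 9.37 and 7.94 CPM in O2, without overlap, and missed the threshold (0.43 ± 0.14, adjusted p = 0.11), which it passed by DESeq2 (adjusted p = 0.070). Sema6d, a transmembrane semaphorin, rose in WT (0.95 ± 0.19, adjusted p = 0.026) and in GSDMD-KO (0.70 ± 0.19, adjusted p = 0.065). Sema5b, which keeps neurites of the inner retina in their layers, rose in GSDMD-KO from 13.1 to 19.9 CPM in RA to 31.6 to 39.6 CPM in O2 (1.03 ± 0.19, adjusted p = 0.018) and stood at 17.4 to 25.3 and 22.7 to 31.2 CPM in WT (0.22 ± 0.19, adjusted p = 0.62). A call in GSDMD-KO alone does not show a difference between genotypes, and DESeq2 did not call the interaction for Sema5b. The Unc5 ligand Flrt2 fell in GSDMD-KO (-0.51 ± 0.12, adjusted p = 0.041) and stood at -0.37 ± 0.12 in WT, without overlap (adjusted p = 0.14, and 0.095 by DESeq2). Ntng1, a membrane-bound netrin-G, fell in GSDMD-KO (-0.43 ± 0.13, adjusted p = 0.087) and stood at -0.35 ± 0.13 in WT (adjusted p = 0.18).

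The remaining receptors and partners did not pass in the retina. Nrp2 was at 5.92 to 9.45 CPM, Dcc at 4.23 to 6.83 CPM, Neo1 at 26.3 to 35.1 CPM, Unc5c at 7.84 to 11.1 CPM, Robo2 at 28.0 to 48.5 CPM and Slit3 at 0.160 to 2.18 CPM over the 12 retinas. Dcc, scarcely detected in the lung, was thus at several CPM in the retina, where ganglion cell axons use it to leave the eye. Between genotypes 0 of the 48 passed by edgeR's test in O2 or in RA retinas, with 9 and 5 at an unadjusted p under 0.05 (12.6% and 12.7% of all genes). DESeq2 called 1 (Robo3) in O2 retinas and 0 in RA retinas. For the interaction DESeq2 called 1 gene of the list, again Robo3. This gene stood at 1.88 to 3.94 CPM in WT-RA and 0.811 to 1.225 CPM in WT-O2 retinas. It stood at 0.715 to 1.95 CPM in KO-RA and 2.10 to 3.76 CPM in KO-O2 retinas. Its lowest library held 17.6 counts.

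**Figure D5:**
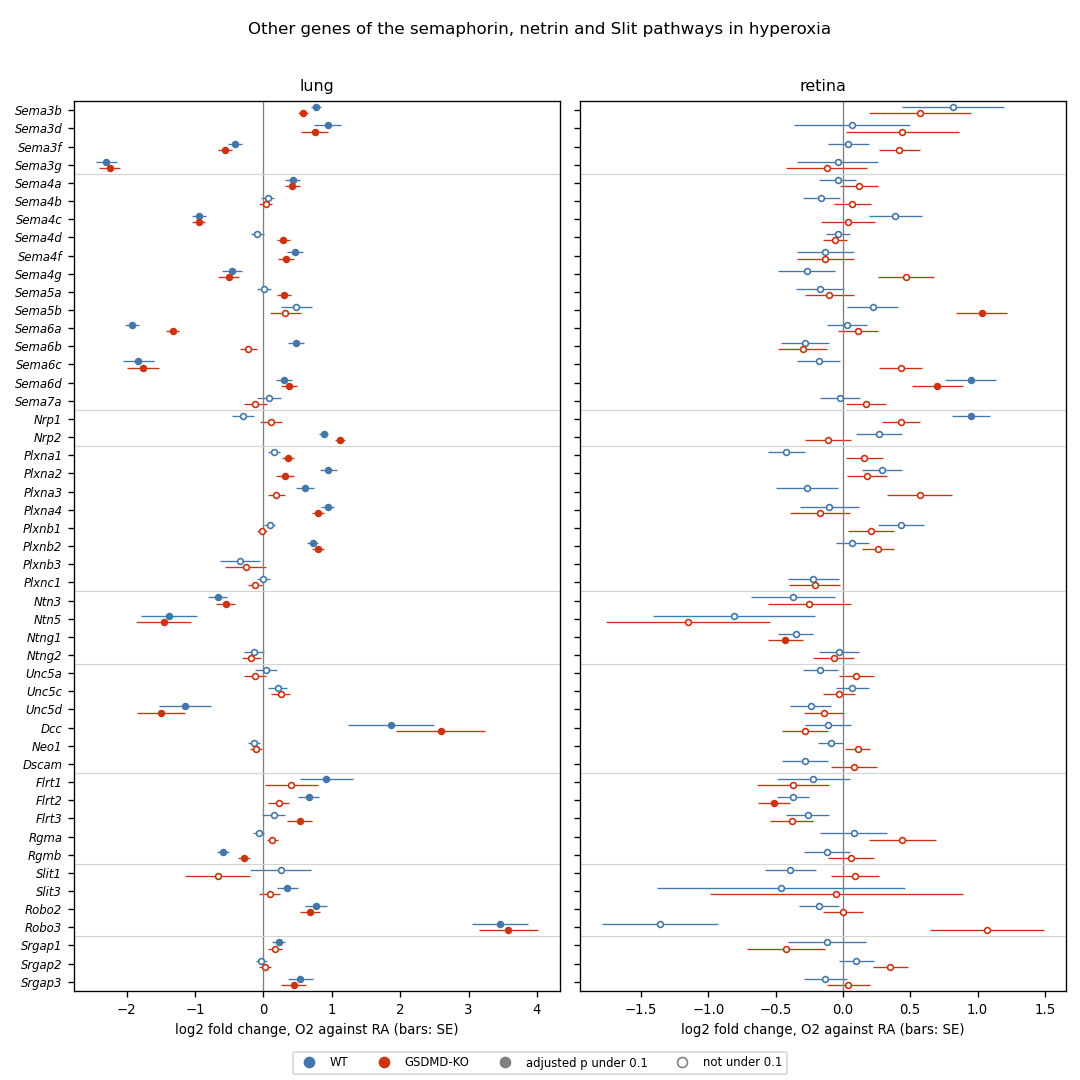
Log2 fold change of O2 against RA (horizontal axes, bars are SE) for the tested genes of the semaphorin, netrin and Slit pathways other than the 10, in WT (blue) and GSDMD-KO (red), lung on the left and retina on the right, filled where the adjusted p was under 0.1, with lines between gene families. Most lung points are filled, with Sema3g and Sema6a far to the left and Dcc and Robo3 to the right, and few retina points are filled, among them Nrp1, Sema6d and Sema5b.

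Levels can be ranked between genes only per length, here as CPM per kilobase of the longest annotated transcript. In WT-RA lungs the order was Sema3c (97.4 ± 16.0, SD, n = 3), Plxnd1 (51.1 ± 4.90), Ntn4 (29.4 ± 1.69), Robo4 (24.5 ± 1.51), Sema3e (15.1 ± 1.46), Slit2 (14.95 ± 1.57), Ntn1 (14.9 ± 2.09), Sema3a (12.1 ± 0.705), Unc5b (9.31 ± 2.94) and Robo1 (5.05 ± 0.603). Sema3e, Slit2 and Ntn1 overlapped with their neighbours in this order, as did Sema3a with Unc5b, and the other neighbours did not. In WT-RA retinas Slit2 led with 8.89 ± 1.10, followed by Ntn4 (2.15 ± 0.139), Plxnd1 (1.30 ± 0.161) and Robo1 (1.25 ± 0.121), of which the last pair overlapped. Robo4 (0.941 ± 0.0385), Unc5b (0.870 ± 0.0568), Sema3e (0.751 ± 0.0884), Sema3a (0.682 ± 0.169) and Sema3c (0.626 ± 0.140) formed a run in which each overlapped with the next, and Ntn1 came last (0.119 ± 0.0809). In O2 lungs Plxnd1 came first (60.6 ± 6.88 in WT-O2 and 59.4 ± 9.95 in KO-O2) and Sema3c next (51.4 ± 12.4 and 55.2 ± 7.17), with overlap in both genotypes. Sema3c, which led in RA lungs, was thus among the lowest of the 10 in WT-RA, WT-O2 and KO-O2 retinas. In KO-RA retinas it ranked 3 of 10 (1.51 ± 1.41), with its highest value in the lens-marked KO-RA replicate 3. The order was taken within each tissue because the tables were normalised separately.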

How the data were processed

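RNA from 12 lungs and 12 retinas was sequenced by BGI. Reads were assigned to transcripts by kallisto and collapsed to genes by tximport. For each tissue the authors supplied estimated counts with decimals (expected counts), with a column for every mouse, and are not divided by library size. The settings of tximport are not given in the sources used here. Of the nonzero values, 55.8% of lung and 2.2% of retina counts lay within 0.01 of a whole number, so retina counts may be scaled for transcript length. The labels name mm10 and the study's methods a later build. Coordinates here are those of GRCm38, and symbols were given by identifier to 35816 lung and 35968 retina genes.

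Counts were rounded, filtered with filterByExpr, scaled by TMM and fitted with edgeR 4.0.16 in R 4.3.3, with the 12 libraries of a tissue in a single model of 4 groups. P-values of the quasi-likelihood F-test were adjusted by Benjamini-Hochberg over all genes. Shares of all genes are from this fit, and counts of DESeq2 calls are given without such a share. The SE was obtained by dividing the size of the log2 fold change by the root of F. The script was tested on simulated data. Alternatives were RLE and upper-quartile factors, no filter, DESeq2 1.42.0, only the groups compared, a Y-linked term, each library left out and other thresholds. Leaving out the lens-marked and liver-marked libraries was chosen after seeing the data. Besides the 10 genes, the text names the partners Nrp1, Nrp2, Dcc, Neo1, Unc5c, Slit3 and Robo2 and, per tissue, at most 6 listed genes that passed with the smallest p. The 10 genes and all lists were chosen with earlier results of these data known. The labels name single animals, so p-values measure the spread between mice. Replicate numbers follow accession order and pair nothing. With 3 mice per group, genes under about 1 CPM carry a large counting error.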

Additional observations from a re-analysis of the deposited data

Results flagged for a closer look

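Sema3a and Sema3e moved in opposite directions in the 2 tissues of GSDMD-KO mice, each without overlap between RA and O2 mice. For Sema3a the log2 fold change of KO-O2 against KO-RA was 0.77 in the lung, where it passed the test, and -0.47 in the retina, where it did not. For Sema3e the lung value was 0.44 and the retina value -0.71, and both passed. The retina call for Sema3e was lost without KO-RA replicate 1, KO-RA replicate 3 or KO-O2 replicate 2 (adjusted p = 0.11, 0.11 and 0.17 by edgeR). The difference between the tissues was not tested, because the tables were made separately and the exposures and ages differed. In the retina, all 3 KO-RA mice and 1 of 3 KO-O2 mice had Y-linked expression over 20 CPM, and with a term for it Sema3a was at -0.51 (adjusted p = 0.35) and Sema3e at -0.86 (adjusted p = 0.067) by edgeR's quasi-likelihood test.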

How the results depend on the processing

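Over the 10 genes, 5 contrasts and 2 tissues, the alternative fits gave 1833 values on the same side of the threshold as reported. Another 19 newly passed and 28 no longer passed, with 0 reversed. Direction was read only for values that passed in either fit. The other thresholds, the 2-fold rule and an adjusted p under 0.05, are not in these counts. In the genotype comparisons and interactions no gene had passed in the main fit, so no call could be lost there. By the study's 2-fold rule the number of genes that passed was 0 of 10 in both lung hyperoxia comparisons and 2 of 10 in GSDMD-KO retinas. In GSDMD-KO retinas 3 of 10 passed with only the groups compared, where Sema3c and Unc5b lost their calls, and 3 with a Y-linked term. Without the lens-marked libraries 1 of 10 passed in WT and 1 in GSDMD-KO retinas. DESeq2 called 2 of 10 in KO-O2 against WT-O2 retinas, a count without a share of all genes beside it. Leaving out 1 library at a time, the number ran from 8 to 10 in WT lungs, 7 to 9 in GSDMD-KO lungs, 2 to 3 in WT retinas and 1 to 6 in GSDMD-KO retinas, the last without KO-O2 replicate 2 at its lowest. It ran from 0 to 1 in KO-RA against WT-RA lungs and stayed at 0 in the other genotype comparisons and both interactions. Without KO-RA replicate 1 and KO-RA replicate 3, 3 and 2 genes passed in GSDMD-KO retinas. The causes were not tested. No paired analysis was possible because the labels give no replicate numbers that groups share. Depth limits Ntn1, Sema3c and Robo3 in the retina and Dcc and Robo3 in the lung. Sex could not be separated fully from exposure in the retina or from genotype in the lung.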
